A study of Mus musculus with 6 samples.

Results

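Interferon-stimulated genes are the genes that cells switch on when interferons, or the sensors that detect viral or misplaced nucleic acid, are active. The set described here holds 41 mouse genes listed by symbol, and a gene counted as measured when at least 1 of its probes had a detection p-value under 0.05 on 2 or more of 6 arrays. By that rule 31 of the 41 genes were measured, among 10538 genes in all. The arrays were one-colour Illumina bead arrays of RNA from cardiomyocyte-enriched heart cells of C57BL/6J mice, 2 per group. TAC_BIX mice had transverse aortic constriction, a narrowing of the aorta that makes the heart pump against a raised pressure, and received BIX-01294, an inhibitor of the histone methyltransferases G9a and GLP, for 1 week from an implanted pump. TAC_DMSO mice had the same constriction and received DMSO, the vehicle. Sham mice had the surgery without the constriction, and no vehicle or drug is named for them, so constriction and vehicle cannot be told apart in the comparison of TAC_DMSO with sham. Age, sex, time since surgery and the number of mice per array were not given in the sources used here, and a p-value measures the spread between these 6 arrays.

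Type I interferons signal through a receptor on the cell surface to the kinases JAK1 and TYK2, and the complex of factors they activate, which includes STAT2 and IRF9, binds a promoter motif called the interferon-stimulated response element (ISRE). Interferon gamma uses another receptor and acts through another motif, the gamma-activated sequence (GAS), and it favours the GTPases of the IRG and GBP families and the chemokine Cxcl9. Inside the cell, the RNA sensors RIG-I and MDA5 pass their signal through the adaptor MAVS to the kinase TBK1 and the factor IRF3, which can drive part of the same gene set without added interferon. In the heart, macrophages, endothelial cells, fibroblasts and cardiomyocytes can all express such genes.

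RefSeq promoters (build GRCm38.p6, from 250 bases before to 50 bases after the gene's start) were at hand for 25 of the 31 measured genes. The letters TTTCNNTTTC, the core of an ISRE, were searched on both strands. They occurred in 13 of these 25 genes (52.0%), against 3.99% of the 27025 genes in the promoter table, and in 43.3% of the 30 promoters of measured members against 3.44% of all 32851 promoters. The letters TTCNNNGAA, the core of a GAS, occurred in 7 of the 25 genes (28.0%), against 9.55% of genes and 8.3% of promoters; in Bst2 and Ifitm3 the match overlapped an ISRE match. These are matches of letters and do not show that a factor binds. The 13 genes with the ISRE letters were Bst2, Cxcl10, Ddx58, Gbp2, Gbp3, Ifit3, Ifitm3, Igtp, Irgm1, Irgm2, Isg15, Rsad2 and Stat2. Of the members on which the results below turn, 6 are printed 5′ to 3′ on the gene's strand, with the matches to the ISRE letters on either strand in capitals. Rsad2 and Ddx58 passed a test with a match in this window, Isg15 and Bst2 shared the same array pattern, and Igtp and Irgm2 are a pair of like genes side by side.
Rsad2: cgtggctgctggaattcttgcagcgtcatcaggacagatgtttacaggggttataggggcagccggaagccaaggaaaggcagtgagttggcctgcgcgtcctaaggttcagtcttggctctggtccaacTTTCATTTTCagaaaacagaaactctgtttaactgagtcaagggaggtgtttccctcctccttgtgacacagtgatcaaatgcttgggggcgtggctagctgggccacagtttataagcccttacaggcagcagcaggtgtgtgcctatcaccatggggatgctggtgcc
Isg15: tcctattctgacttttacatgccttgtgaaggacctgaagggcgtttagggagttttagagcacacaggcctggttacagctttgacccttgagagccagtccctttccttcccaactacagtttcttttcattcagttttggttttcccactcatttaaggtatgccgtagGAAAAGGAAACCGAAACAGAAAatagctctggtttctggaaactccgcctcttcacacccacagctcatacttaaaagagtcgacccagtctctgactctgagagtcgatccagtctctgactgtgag
Bst2: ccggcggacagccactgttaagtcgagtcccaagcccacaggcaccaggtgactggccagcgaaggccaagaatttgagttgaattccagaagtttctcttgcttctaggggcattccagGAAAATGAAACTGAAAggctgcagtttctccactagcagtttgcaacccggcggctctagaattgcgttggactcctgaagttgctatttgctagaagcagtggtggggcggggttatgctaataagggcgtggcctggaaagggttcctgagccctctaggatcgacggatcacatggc
Ddx58: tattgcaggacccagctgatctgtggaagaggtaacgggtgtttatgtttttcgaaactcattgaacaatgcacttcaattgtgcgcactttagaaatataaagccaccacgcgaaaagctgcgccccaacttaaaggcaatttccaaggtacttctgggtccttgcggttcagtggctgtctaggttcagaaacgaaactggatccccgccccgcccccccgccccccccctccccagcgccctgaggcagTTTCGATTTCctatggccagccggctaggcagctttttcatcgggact
Igtp: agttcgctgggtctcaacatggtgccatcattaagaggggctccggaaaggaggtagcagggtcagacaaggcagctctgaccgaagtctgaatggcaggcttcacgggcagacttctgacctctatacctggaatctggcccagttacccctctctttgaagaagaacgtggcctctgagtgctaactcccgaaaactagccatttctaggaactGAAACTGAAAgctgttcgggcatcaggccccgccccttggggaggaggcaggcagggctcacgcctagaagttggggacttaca
Irgm2: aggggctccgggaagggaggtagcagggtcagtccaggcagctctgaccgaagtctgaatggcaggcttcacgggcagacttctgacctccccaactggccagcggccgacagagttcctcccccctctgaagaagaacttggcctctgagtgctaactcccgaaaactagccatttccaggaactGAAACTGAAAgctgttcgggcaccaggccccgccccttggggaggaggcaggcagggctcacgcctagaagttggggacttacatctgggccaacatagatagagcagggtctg
Their windows are chr12:26456403-26456702 (minus strand) for Rsad2, chr4:156200769-156201068 (minus) for Isg15, chr8:71537423-71537722 (minus) for Bst2, chr4:40239776-40240075 (minus) for Ddx58, chr11:58199306-58199605 (plus) for Igtp and chr11:58214727-58215026 (plus) for Irgm2. Counted from 0 at the gene's first base, the match began at -120 in Rsad2, at 2 in Ddx58, at -34 in Igtp and at -64 in Irgm2. Isg15 held 3 overlapping matches that began between -78 and -66, and Bst2 held 2 that began at -130 and -124. The promoters of Igtp and Irgm2 were near copies: in a local alignment 247 of 271 columns were identical (91.1%).

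The measured genes were detected on most arrays, with the lowest numbers in sham. Of the 31, the TAC_BIX arrays detected 30 and 31, both TAC_DMSO arrays 31, and the sham arrays 24 and 28; 24 genes were detected on all 6 arrays. Ddx58, Oasl1 and Cxcl10 were detected on no sham array, so they entered the set only through the arrays of the constricted hearts. Dhx58, Irf7, Mx2 and Ifi47 were detected on 1 sham array and entered partly through those of the constricted hearts. The differences of all these genes from sham can be compressed by the detection limit. Cxcl10, with 3 arrays, was the member nearest to the limit of the rule. Mx1 and Xaf1, detected on TAC_BIX replicate 2 only, lay just outside it. Ifit1, Ifih1 (which encodes MDA5), Oas3, Iigp1, Rtp4, Parp9 and Tgtp1 were detected on no array, and Ifi44 was not analysed here. All 9 cardiomyocyte markers on the arrays were detected on all 6, and so were the 20 measured macrophage and leukocyte markers, while 9 lymphocyte markers were not measured. Each array detected 36.7% to 40.9% of 45281 probes, and over all of these probes r was 0.988 to 0.992 between replicates and 0.974 to 0.989 between groups.

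Across the arrays, most of the set was high in TAC_DMSO, low in sham and in between in TAC_BIX. As the median over the 31 genes of the deviation from each gene's own mean (log2), the arrays stood at -0.17 and 0.25 in TAC_BIX, at 0.27 and 0.38 in TAC_DMSO, and at -0.66 and -0.21 in sham. TAC_BIX replicate 2 thus stood level with the TAC_DMSO arrays, and TAC_BIX replicate 1 level with sham replicate 2. The nucleic acid sensors did not follow this order: their medians were -0.15 and 0.10 in TAC_BIX, -0.01 and -0.04 in TAC_DMSO, and -0.25 and 0.00 in sham. The 3 comparisons below share arrays, so their values are not independent of each other.

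**Figure D1:**
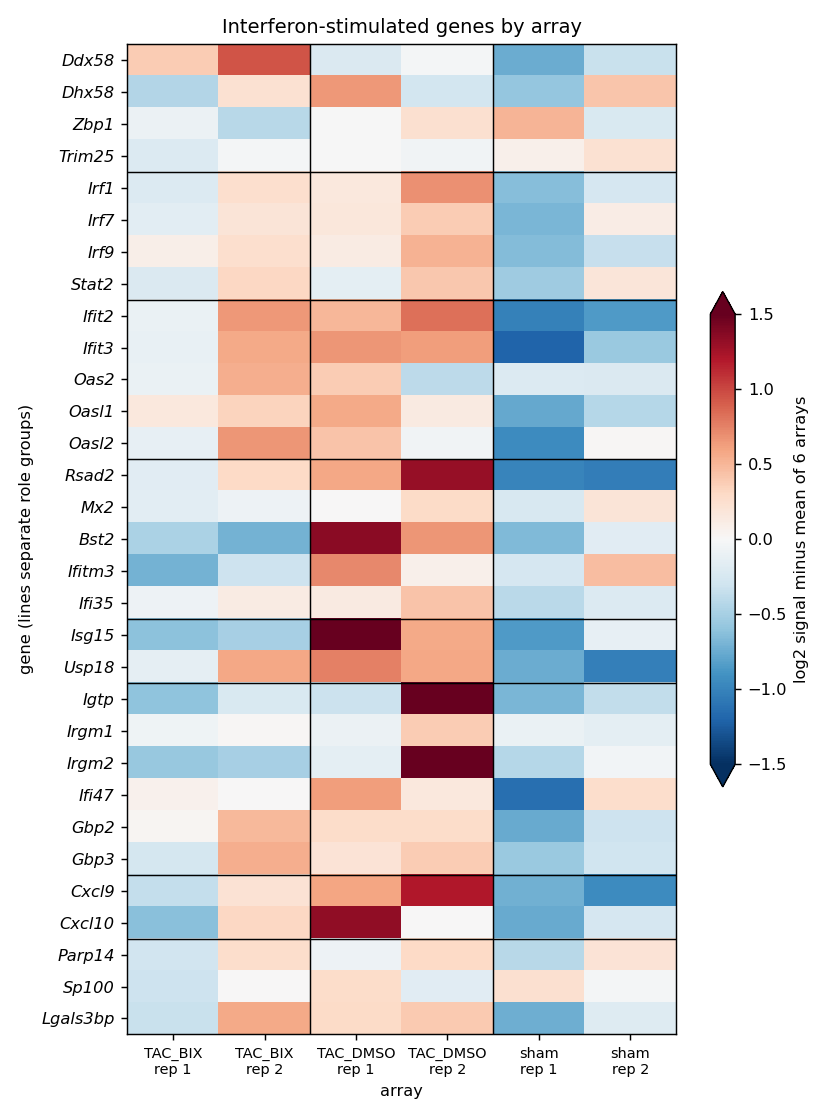
Log2 signal of the 31 measured genes (rows, in role groups) on the 6 arrays (columns), as the deviation from the gene's mean over the arrays; colours end at 1.5 log2 units either way. Most rows are red in the TAC_DMSO columns and blue in the sham columns, Isg15 and Bst2 are blue in both TAC_BIX columns, and Igtp and Irgm2 are dark red in TAC_DMSO replicate 2 alone.

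TAC_DMSO was set against sham to see how these genes differed after constriction with vehicle. Rsad2, which encodes viperin, an antiviral enzyme that makes a chain-terminating nucleotide, measured 8.57 and 9.30 in TAC_DMSO, against 7.00 and 6.95 in sham (log2 signal). Both TAC_DMSO arrays lay above both sham arrays. The difference was 1.96 ± 0.27 log2 (SE), or 3.89-fold, and passed the test over all genes (limma adjusted p = 0.0499). It was the 1 member called, or 3.23% of 31, against 0.408% of all genes called (43, with 22 higher and 21 lower) and 0.209% called higher. The arrays did not overlap for 19 members higher in TAC_DMSO (61.3%, against 24.9% of all genes) and for 1 lower (against 29% of all genes). The differences of 28 of the 31 were above 0 (against 48.5% of all genes) and those of 3 below (against 51.5%), and their median was 0.80, against -0.01 over all genes. These counts include the members detected on 1 sham array or none, which entered through the constricted hearts. Over the 24 members detected on all 6 arrays the median was 0.80 as well, against -0.04 over all genes so detected. An adjusted p under 0.1 was reached by 9 members higher (29%, against 3.01% of all genes), namely Rsad2, Cxcl9, Ifit2, Usp18, Ifit3, Bst2, Isg15, Oasl1 and Irf9, and by 0 lower (against 2.78%). The call of Rsad2 rests on most arrays: the adjusted p was 0.116 without either TAC_BIX array, 0.0985 without TAC_DMSO replicate 1, 0.141 without sham replicate 1 and 0.171 without sham replicate 2, with differences of 1.93 to 2.32. It was 0.0591 with the authors' processed values (difference 1.19) and 0.0788 with no filter on dim probes, and with median scaling, which raised the median of all genes by 0.31, 932 genes were called higher and 24 lower. Without TAC_DMSO replicate 2, 3 members were called, and without sham replicate 1 the median was 0.53.

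Setting TAC_BIX against TAC_DMSO shows how the set differed with the inhibitor in constricted hearts. No member was called (0 of 31), and 0 of all genes were called (0%), while limma gave an unadjusted p under 0.05 to 963 genes higher and 1127 lower and other settings called up to 710 genes. At that unadjusted threshold 6 members were lower (19.4%, against 10.7% of all genes) and 1 higher (against 9.14%). The arrays did not overlap for 12 members lower in TAC_BIX (38.7%, against 23% of all genes) and for 1 higher, Ddx58 (against 28.7%). The differences of 28 of the 31 were below 0 (against 46.6% of all genes) and those of 3 above (against 53.4%), with a median of -0.26, against 0.03 over all genes. The lowest were those of Isg15 and Bst2 and the highest that of Ddx58. Isg15 and Bst2 were the 2 members lower at an adjusted p under 0.1 (6.45%, against 4.24% of all genes), and 0 were higher (against 0.883%). The median was -0.09 without TAC_BIX replicate 1, -0.44 without TAC_BIX replicate 2 and -0.17 without TAC_DMSO replicate 2.

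TAC_BIX against sham shows where constricted hearts given the inhibitor stood against unconstricted ones. Ddx58, Ifit2 and Usp18 were called higher in TAC_BIX, 3 of 31 members (9.68%), against 6.65% of all genes called (701) and 2.74% called higher, and 0 members were called lower, against 3.91%. Ddx58 encodes the RNA sensor RIG-I, Ifit2 a protein that binds viral RNA and holds back its translation, and Usp18 the protease that strips ISG15 from proteins and shuts off the type I interferon receptor. The arrays did not overlap for 14 members higher in TAC_BIX (45.2%, against 29.8% of all genes) and for 3 lower (against 28.6%): Trim25, Ifitm3 and Irgm2. An adjusted p under 0.1 was reached by 8 members higher (25.8%, against 6.54% of all genes) and by 0 lower (against 7.6%). The differences of 22 were above 0 (against 49.6% of all genes) and those of 9 below (against 50.4%), with a median of 0.35, against 0.00 over all genes. Over the 24 members detected on both sham arrays, 2 were called and the median was 0.38. With median scaling 3642 genes were called higher and 129 lower, against 289 and 412 here, and the median of all genes was 0.53. The median of the members was 0.12 without sham replicate 1, 0.13 without TAC_BIX replicate 2 and 0.60 without sham replicate 2, and no member was called without any 1 of these 3 arrays.

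**Figure D2:**
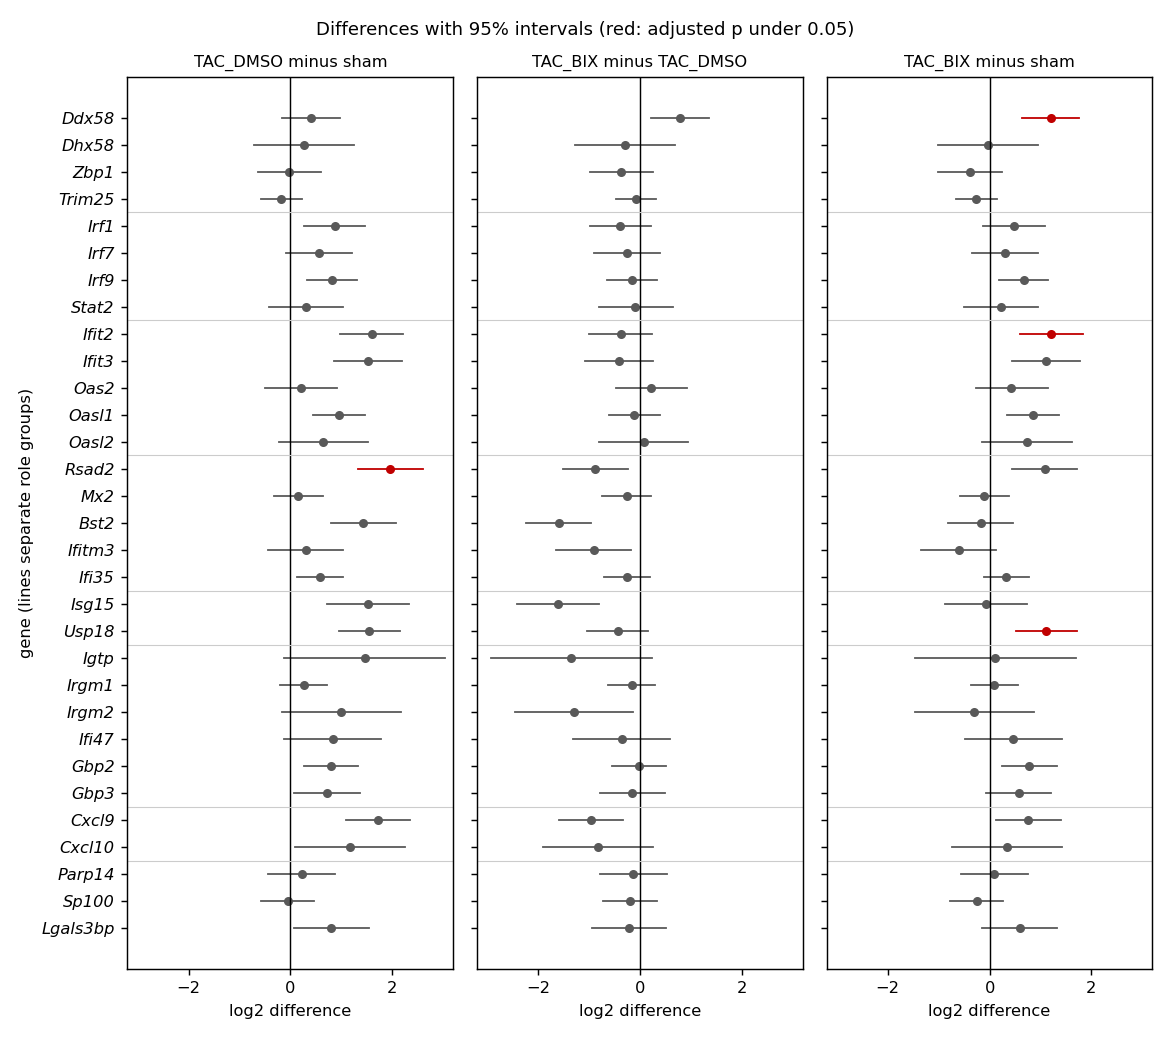
Log2 differences of the 31 measured genes (rows, in role groups) in the 3 comparisons, with 95% intervals from the fit; red marks an adjusted p under 0.05. In TAC_DMSO minus sham most points lie right of 0 and Rsad2 is red, in TAC_BIX minus TAC_DMSO most lie left of 0 with none red, and in TAC_BIX minus sham Ddx58, Ifit2 and Usp18 are red.

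Among the nucleic acid sensors, Ddx58 was highest in TAC_BIX. It measured 5.67 and 6.23 in TAC_BIX, 5.07 and 5.26 in TAC_DMSO, and 4.55 and 4.96 in sham (log2 signal), where it was not detected on either array. The TAC_BIX arrays were the highest, the TAC_DMSO arrays came next, and no groups overlapped. In TAC_BIX it was at least 1.97-fold above sham (adjusted p = 0.0333), with a difference from TAC_DMSO of 0.79 log2 (95% interval 0.22 to 1.35, adjusted p = 0.143), and in TAC_DMSO it was at least 1.14-fold above sham (adjusted p = 0.363). Without 1 array its adjusted p against sham was 0.0537 (TAC_BIX replicate 1), 0.248 (TAC_BIX replicate 2), 0.142 (sham replicate 1) or 0.0941 (sham replicate 2). It was 0.0743 without background correction (difference 0.39), 0.113 with the authors' processed values (difference 0.25) and 0.068 with no filter on dim probes. The other sensors and regulators stayed near 0. Zbp1, a sensor of Z-form nucleic acid, measured 6.37 and 6.05 in TAC_BIX, 6.45 and 6.70 in TAC_DMSO, and 6.97 and 6.23 in sham. Trim25, a ubiquitin ligase that helps RIG-I signal, measured 8.04 and 8.22 in TAC_BIX, 8.24 and 8.19 in TAC_DMSO, and 8.32 and 8.47 in sham. Zbp1 and Trim25 differed by -0.39 to -0.02 between groups (adjusted p = 0.369 to 0.979). Dhx58, which encodes the RIG-I relative LGP2, differed by -0.30 to 0.27, and its 3 probes did not share a sign against sham.

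The transcription factors of the interferon response were higher in TAC_DMSO than in sham by 0.31 to 0.87 log2, with 0 of 4 called. Irf9, the DNA-binding part of the ISRE complex, measured 8.14 and 8.30 in TAC_BIX, 8.17 and 8.57 in TAC_DMSO, and 7.40 and 7.70 in sham. Both groups of constricted hearts lay wholly above sham and overlapped each other. Its differences were 0.82 in TAC_DMSO against sham and 0.67 in TAC_BIX against sham (adjusted p = 0.0949 and 0.0985), and its second probe gave 0.83 and 0.68. Irf1, a factor induced strongly by interferon gamma, measured 8.93 and 9.39 in TAC_BIX, 9.29 and 9.82 in TAC_DMSO, and 8.49 and 8.88 in sham. On its brightest probe it too was above sham on every array of the constricted hearts, by 0.87 in TAC_DMSO and 0.48 in TAC_BIX (adjusted p = 0.121 and 0.288). Its other probes gave smaller differences of TAC_DMSO from sham, of 0.48, 0.20, 0.19 and 0.29. On the second probe, both groups of constricted hearts overlapped sham. The 5 probes of Irf1 did not share a sign between TAC_BIX and TAC_DMSO. Irf7, which drives the alpha interferon genes, measured 5.09 and 5.44 in TAC_BIX, 5.42 and 5.63 in TAC_DMSO, and 4.57 and 5.36 in sham, where 1 array did not detect it. Stat2, which joins Irf9 in that complex, ranged from 5.18 to 6.12 over the arrays and the groups overlapped in each comparison.

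The IFIT genes stood well above sham in both groups of constricted hearts. Ifit2 measured 7.42 and 8.18 in TAC_BIX, 8.02 and 8.35 in TAC_DMSO, and 6.51 and 6.67 in sham. Every array of a constricted heart lay above both sham arrays, and TAC_BIX replicate 2 lay between the TAC_DMSO arrays. Ifit2 was 2.32-fold above sham in TAC_BIX (1.21 ± 0.27 log2, SE, adjusted p = 0.042) and 3.02-fold in TAC_DMSO (1.60 ± 0.27, adjusted p = 0.0544). TAC_DMSO thus had the larger difference and limma's smaller unadjusted p (0.000422, against 0.00226 for TAC_BIX), and the adjusted values changed places because 701 genes were called in one table and 43 in the other. The direct difference of TAC_BIX from TAC_DMSO was -0.38 (95% interval -1.01 to 0.24, adjusted p = 0.468), so no difference in Ifit2 between the constricted groups was shown. The call against sham was lost without TAC_BIX replicate 2 (0.83, adjusted p = 0.253), sham replicate 1 (1.13, adjusted p = 0.155) and sham replicate 2 (1.29, adjusted p = 0.124). It was also lost without background correction (0.75, adjusted p = 0.05), with the authors' processed values (0.58, adjusted p = 0.0891) and with no filter on dim probes (adjusted p = 0.0863).

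Ifit3, the partner of Ifit2 and its next protein-coding neighbour on chromosome 19, measured 8.37 and 9.05 in TAC_BIX, 9.14 and 9.11 in TAC_DMSO, and 7.28 and 7.92 in sham. Its order of groups was that of Ifit2, with differences from sham of 1.11 in TAC_BIX and 1.53 in TAC_DMSO (adjusted p = 0.0619 and 0.0608). Its second probe was 0.09 higher in TAC_BIX than in TAC_DMSO where the first was 0.42 lower. Of the oligoadenylate synthetase family, which senses double-stranded RNA, Oasl1 measured 5.50 and 5.67 in TAC_BIX, 5.91 and 5.48 in TAC_DMSO, and 4.57 and 4.91 in sham, where neither array detected it. Oasl1, known in mice to hold back translation of Irf7, was at least 1.53-fold above sham in TAC_BIX and at least 1.64-fold in TAC_DMSO (adjusted p = 0.0603 and 0.0775). Its neighbour Oasl2 and the enzyme gene Oas2 differed from sham by 0.21 to 0.73, with overlap except for Oas2 in TAC_BIX against sham, and the 2 probes of Oasl2 did not share a sign in any comparison.

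Among the other antiviral effectors, Rsad2 in TAC_BIX lay between the other groups and Bst2 overlapped sham. Rsad2 measured 7.82 and 8.29 in TAC_BIX, below both TAC_DMSO arrays and above both sham arrays. Its differences were -0.88 from TAC_DMSO (95% interval -1.51 to -0.24, adjusted p = 0.147) and 1.08 from sham (adjusted p = 0.0583). Bst2, which encodes tetherin, a membrane protein that ties budding virus to the cell, measured 5.96 and 5.73 in TAC_BIX, 7.79 and 7.10 in TAC_DMSO, and 5.77 and 6.26 in sham. The TAC_DMSO arrays lay apart above all the others, and the TAC_BIX arrays overlapped the sham arrays. Bst2 was 3.04-fold lower in TAC_BIX than in TAC_DMSO (-1.60 log2, 95% interval -2.24 to -0.96), with an adjusted p of 0.0652, above the threshold. Its difference of TAC_BIX from sham was -0.17 (95% interval -0.81 to 0.47), and that of TAC_DMSO from sham 1.43 (adjusted p = 0.063). Ifitm3, which blocks fusion of virus with the endosome, measured 10.09 and 10.49 in TAC_BIX, 11.52 and 10.87 in TAC_DMSO, and 10.54 and 11.26 in sham. The TAC_BIX arrays were the lowest, while TAC_DMSO and sham overlapped, with differences of -0.91 from TAC_DMSO and -0.61 from sham (adjusted p = 0.176 and 0.264). Mx2 and Ifi35 differed by 0.59 or less in size in every comparison.

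The 2 genes of the ISG15 system had different array patterns. Isg15, the ubiquitin-like protein that is attached to other proteins after interferon, measured 5.66 and 5.77 in TAC_BIX, 7.80 and 6.84 in TAC_DMSO, and 5.42 and 6.15 in sham. The TAC_DMSO arrays lay above all others and the TAC_BIX arrays lay between the sham arrays. Isg15 was 3.04-fold lower in TAC_BIX than in TAC_DMSO (-1.61 log2, 95% interval -2.41 to -0.80, adjusted p = 0.0725). Its difference of TAC_BIX from sham was -0.07 (95% interval -0.88 to 0.74), and that of TAC_DMSO from sham 1.53 (adjusted p = 0.0775). Usp18 measured 7.45 and 8.16 in TAC_BIX, 8.33 and 8.16 in TAC_DMSO, and 6.83 and 6.55 in sham. In TAC_BIX it stayed above both sham arrays, and it was 2.16-fold above sham (1.11 ± 0.26 log2, SE, adjusted p = 0.0464). TAC_DMSO was 2.93-fold above sham (adjusted p = 0.0544), and TAC_BIX differed from TAC_DMSO by -0.44 (95% interval -1.04 to 0.16, adjusted p = 0.382). The call of Usp18 was lost without TAC_BIX replicate 2 (adjusted p = 0.269), either TAC_DMSO array (0.0504), sham replicate 1 (0.112) or sham replicate 2 (0.171), and with the mean of its 2 probes (0.0515), the authors' processed values (0.0836) or no filter (0.0884).

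**Figure D3:**
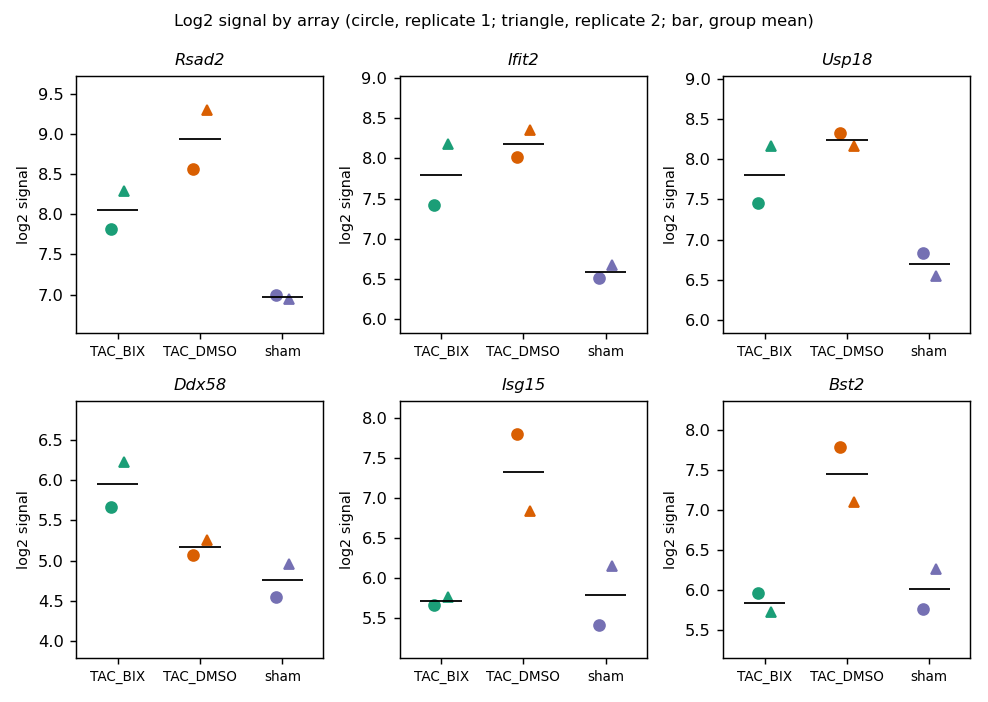
Log2 signal of 6 genes by array: circles are replicate 1, triangles replicate 2 and bars the group means. In the top row (Rsad2, Ifit2 and Usp18) both groups of constricted hearts lie above sham, while in the bottom row Ddx58 is highest in TAC_BIX, and Isg15 and Bst2 are high in TAC_DMSO alone.

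Under some settings Isg15 and Bst2 did pass. Both were called lower in TAC_BIX than in TAC_DMSO with an offset of 50 (adjusted p = 0.0403 and 0.0239), over probes detected on all 6 arrays (0.0463 and 0.037) and with a robust prior that follows intensity (0.0232 and 0.0105), and Bst2 also without background correction (0.0305). Many other genes passed under these settings as well. With the offset of 50, 563 of 10538 genes were called in that comparison, 436 of them lower, and 2 of 31 members. Without background correction 710 genes were called, 471 of them lower, and 1 member. Passing there was thus not particular to Isg15 and Bst2. Most macrophage and leukocyte markers were, like Isg15 and Bst2, lower in TAC_BIX. Of 20 measured markers 18 were below 0 in TAC_BIX against TAC_DMSO, against 46.6% of all genes, and 0 were called. The arrays did not overlap for 7 of the 20, all lower in TAC_BIX, against 23% of all genes. Their summed intensity over the 20 was 19800 and 25300 in TAC_BIX, 35800 and 20200 in TAC_DMSO, and 16100 and 23700 in sham. Cd52 (-1.88), Aif1 (-1.79), Fcer1g (-1.44), H2-Aa (-1.44), Tyrobp (-1.43) and H2-Ab1 (-1.03) lay below -1, while 7 markers, among them the macrophage genes Csf1r, Cd14, Lyz2 and Mrc1, lay within 0.2 of 0. Of the defining markers, Ptprc, Itgam and Ccr2 were not measured. The marker median was highest on TAC_DMSO replicate 1 (0.72). Without that array the differences of Isg15 and Bst2 for TAC_BIX minus TAC_DMSO were -1.13 and -1.26, against -1.61 and -1.60 with it. For TAC_DMSO minus sham they were 1.06 and 1.09, against 1.53 and 1.43 with it. These differences had not passed with all 6 arrays. The 7 markers without overlap were Aif1, Cd52, Cd163, Fcer1g, H2-Aa, H2-Ab1 and Tyrobp. By that definition they were above both TAC_BIX arrays on TAC_DMSO replicate 2 too, so this is no separate result. Over all 20 markers the median was -0.20 on TAC_DMSO replicate 2 and 0.37 on sham replicate 2. Aif1, for example, measured 5.79 and 6.21 in TAC_BIX and 8.16 and 7.42 in TAC_DMSO. The part of the macrophage markers in the result was not tested, and in bulk RNA fewer cells of a type and less RNA per cell cannot be told apart.

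**Figure D4:**
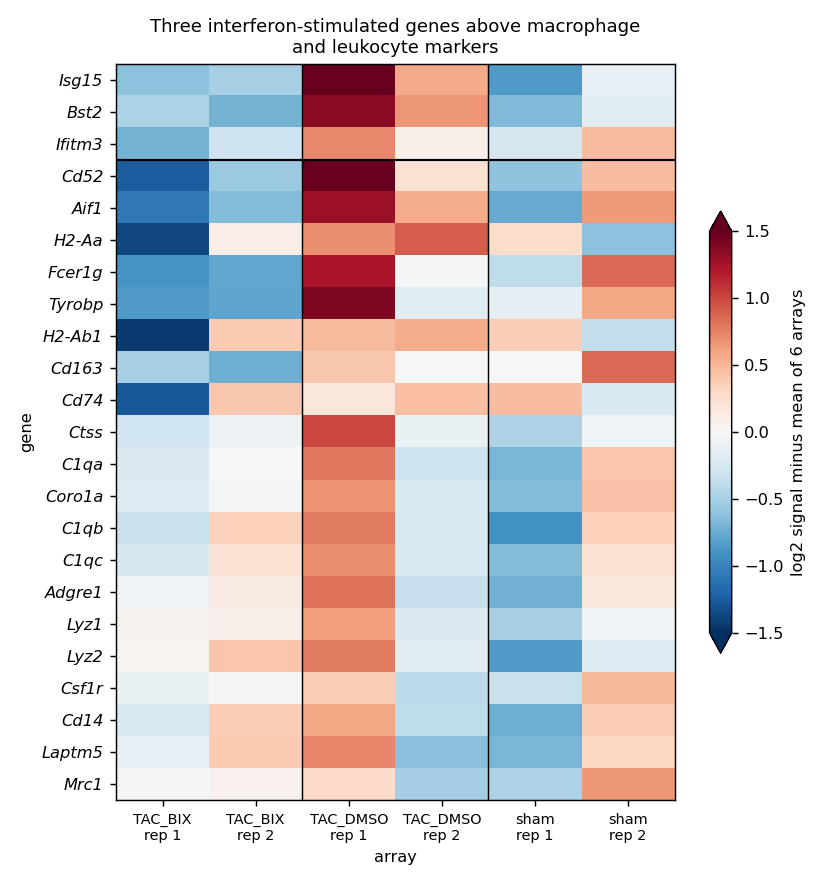
Log2 signal of Isg15, Bst2 and Ifitm3 (top) and of 20 macrophage and leukocyte markers (below, sorted by TAC_BIX minus TAC_DMSO), as the deviation from each gene's mean over the 6 arrays (columns). Isg15 and Bst2 are red on both TAC_DMSO arrays. Most markers are red on TAC_DMSO replicate 1. Most also lie above their mean on sham replicate 2 (marker median 0.37), where Isg15 and Bst2 lie below theirs. The markers near the foot differ little between TAC_BIX and TAC_DMSO.

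The interferon-inducible GTPases, a family that takes part in defence against intracellular parasites, held a pair that stood out on 1 array. Igtp measured 8.13 and 8.51 in TAC_BIX, 8.41 and 10.93 in TAC_DMSO, and 8.05 and 8.37 in sham. Irgm2 measured 8.75 and 8.82 in TAC_BIX, 9.17 and 10.99 in TAC_DMSO, and 8.89 and 9.27 in sham. Both were high on TAC_DMSO replicate 2 and near one level on the other 5 arrays. They are next neighbours among the protein-coding genes of chromosome 11 and share most of the promoter letters shown above. Irgm1, a relative of both, gave 8.12 and 9.61 in TAC_DMSO and 7.69 to 8.50 elsewhere on its second probe, while its brightest probe ranged from 11.44 to 11.96 over all arrays. Without TAC_DMSO replicate 2 the differences of TAC_DMSO from sham were 0.20 for Igtp and 0.09 for Irgm2, against 1.46 and 1.00 with it (adjusted p = 0.254 and 0.286). Without TAC_DMSO replicate 1, which leaves that array alone in its group, Igtp was called lower in TAC_BIX than in TAC_DMSO (-2.61, adjusted p = 0.034). The same array had the highest erythroid signal: the 3 measured markers summed to 7760 and 1730 in TAC_BIX, 12600 and 29100 in TAC_DMSO, and 6900 and 762 in sham. Its part in the level of Igtp and Irgm2 was not tested.

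The guanylate-binding proteins did not share that array pattern. Gbp2 measured 8.64 and 9.09 in TAC_BIX, 8.88 and 8.88 in TAC_DMSO, and 7.85 and 8.30 in sham. The constricted hearts lay above sham on every array and at one level with each other, with differences from sham of 0.78 in TAC_BIX and 0.80 in TAC_DMSO (adjusted p = 0.0836 and 0.113) and of -0.01 between them (95% interval -0.55 to 0.52). On its brightest probe Gbp3 measured 7.30 and 8.11 in TAC_BIX, 7.77 and 7.95 in TAC_DMSO, and 7.01 and 7.27 in sham, in the same order. The second Gbp3 probe gave 7.12 and 7.87 in TAC_BIX, which overlapped sham (7.04 and 7.52). Its difference of TAC_BIX from sham was 0.21, against 0.57 on the brightest probe. Ifi47, another IRG protein, ranged from 4.76 to 6.52, was not detected on sham replicate 1 and overlapped with sham in both groups of constricted hearts.

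**Figure D5:**
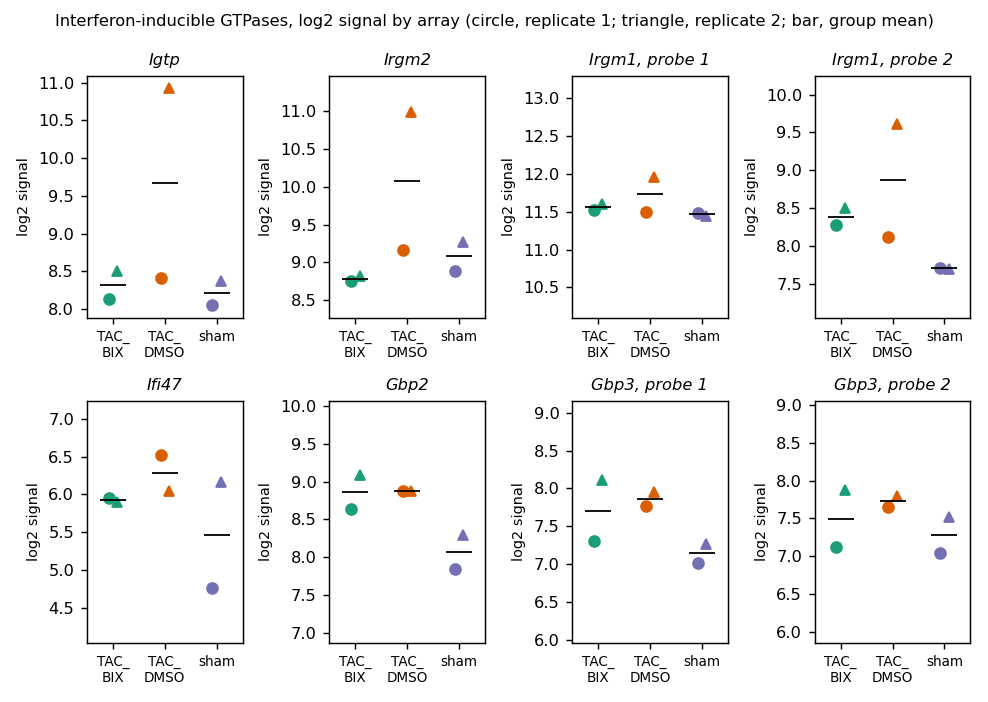
Log2 signal of the interferon-inducible GTPase genes by array, with 2 probes shown for Irgm1 and Gbp3: circles are replicate 1, triangles replicate 2 and bars the group means. The TAC_DMSO triangle stands far above all other points for Igtp, Irgm2 and the second Irgm1 probe, but not for the first Irgm1 probe, Ifi47, Gbp2 or Gbp3.

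The chemokines that draw T cells through the receptor CXCR3 were high in TAC_DMSO. Cxcl9, induced mainly by interferon gamma, measured 5.91 and 6.49 in TAC_BIX, 6.86 and 7.47 in TAC_DMSO, and 5.55 and 5.33 in sham. The 3 groups did not overlap, with TAC_DMSO highest and sham lowest. TAC_DMSO was 3.30-fold above sham (adjusted p = 0.0539), and TAC_BIX differed by -0.96 from TAC_DMSO (95% interval -1.60 to -0.33, adjusted p = 0.122) and by 0.76 from sham (adjusted p = 0.133). Cxcl10 measured 4.43 and 5.37 in TAC_BIX, 6.39 and 5.07 in TAC_DMSO, and 4.30 and 4.81 in sham. It was detected on both TAC_DMSO arrays, on 1 TAC_BIX array and on no sham array, and TAC_DMSO was at least 1.68-fold above sham (adjusted p = 0.194). The lymphocyte markers on the arrays, which include those of the T cells these chemokines attract, were not measured in any group.

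The last group joins genes of mixed roles, and 0 of 3 were called. Lgals3bp, a secreted glycoprotein, measured 8.83 and 9.73 in TAC_BIX, 9.45 and 9.55 in TAC_DMSO, and 8.43 and 8.97 in sham. It was above sham on both TAC_DMSO arrays (0.80, adjusted p = 0.191) and overlapped sham in TAC_BIX. Parp14, an ADP-ribosyltransferase, measured 7.64 and 8.20 in TAC_BIX, 7.86 and 8.23 in TAC_DMSO, and 7.52 and 8.14 in sham. Sp100, a nuclear body protein, measured 5.80 and 6.11 in TAC_BIX, 6.38 and 5.93 in TAC_DMSO, and 6.34 and 6.07 in sham. Both had overlapping arrays in all 3 comparisons and differences between -0.25 and 0.22.

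The difference between members did not follow the ISRE letters in one way. In TAC_DMSO against sham the 13 genes with the letters had a median of 1.00 (range 0.26 to 1.96) and the 12 with a promoter and no letters a median of 0.81 (range -0.18 to 1.72). These medians were -0.83 and -0.24 for TAC_BIX minus TAC_DMSO, and 0.22 and 0.53 for TAC_BIX minus sham. Igtp and Irgm2, whose values rest on 1 array, are among the genes with the letters. No test was made of these splits.

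Genes of the pathway upstream of this set did not pass in any comparison: of 45 listed ligands, receptors, kinases, sensors and inhibitors, 39 had a probe, 29 were measured, and 0 were called in either direction. In TAC_DMSO against sham 18 were above 0 (48.5% of all genes were) and 11 below, with a median of 0.05. In TAC_BIX against TAC_DMSO 20 were above 0 (53.4% of all genes were) and 9 below, with a median of 0.09. In TAC_BIX against sham 19 were above 0 (49.6% of all genes were) and 10 below, with a median of 0.21. Ifnb1, Ifng, Ifna2, Ifna4, Ifnk and Ifne, which encode interferons, were on the arrays and not measured, and Ifna1 lay between 4.85 and 5.51 on all arrays, near the limit of detection. The receptor subunit Ifnar1, the sensors Tlr3 and Tlr9 and the inhibitor Socs1 were not measured either. The smallest adjusted p in TAC_DMSO against sham was that of Adar, the RNA-editing enzyme that keeps the cell's own RNA from being sensed. Adar measured 6.27 and 6.24 in TAC_BIX, 6.08 and 6.03 in TAC_DMSO, and 6.84 and 6.99 in sham. Both groups of constricted hearts lay below sham, by 0.65 in TAC_BIX (a difference of -0.65, adjusted p = 0.0591) and 0.86 in TAC_DMSO (a difference of -0.86, adjusted p = 0.063). Mavs, the adaptor of RIG-I, measured 9.75 and 9.23 in TAC_BIX, 8.69 and 9.02 in TAC_DMSO, and 9.78 and 9.91 in sham. It was lowest in TAC_DMSO (-0.99 from sham, adjusted p = 0.0777), and TAC_BIX lay 0.64 above TAC_DMSO (adjusted p = 0.184). Tbk1, the kinase downstream of MAVS, differed from sham by 0.73 in TAC_BIX and 0.64 in TAC_DMSO (adjusted p = 0.0762 and 0.134), and the repressor gene Irf2bp1 by -0.65 and -0.56 (adjusted p = 0.0784 and 0.142). Ptpn2, a phosphatase that acts on JAK kinases, differed by 0.65 in TAC_BIX against sham (adjusted p = 0.091). Against TAC_DMSO, TAC_BIX differed by -0.56 for Trex1, the exonuclease that clears stray DNA (adjusted p = 0.173), by 0.41 for the interferon gamma receptor gene Ifngr1 (adjusted p = 0.322) and by 0.44 for Il10rb, a chain of the lambda interferon receptor (adjusted p = 0.325).

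Markers of other cell types were read on the same arrays. None of the endothelial, fibroblast or macrophage markers was called in TAC_DMSO against sham, where 0.408% of all genes were called and 48.5% were above 0. At so low a share, 0 called does not show that these markers stayed level. An adjusted p under 0.1 (3.01% of all genes higher, 2.78% lower) was reached there by the endothelial markers Ramp2 (1.21, 0.0544), Ly6c1 (1.12, 0.0539) and Flt1 (0.97, 0.0894). It was also reached by the pericyte marker Rgs5 (2.73, 0.0544) and, lower, by Siglech (-0.97, 0.0608). Endothelial markers were above 0 in that comparison for 11 of 13, with a median of 0.50 and 0 called, and their summed intensity was 5980 and 7400 in TAC_BIX, 6460 and 7300 in TAC_DMSO, and 5020 and 4590 in sham. Fibroblast markers were above 0 for 7 of 9, with 0 called, at 12900 and 19900 in TAC_BIX, 14000 and 9010 in TAC_DMSO, and 9990 and 9660 in sham. Macrophage and leukocyte markers were above 0 for 17 of 20, with a median of 0.42 and 0 called. The marker medians by array were -0.27 and 0.07 in TAC_BIX, 0.72 and -0.20 in TAC_DMSO, and -0.55 and 0.37 in sham for macrophages. In TAC_BIX against sham, the comparison with 3 members called, some markers were called as well. Higher were the endothelial markers Pecam1 (1.24, adjusted p = 0.0327) and Flt1 (1.18, adjusted p = 0.0333). So were the fibroblast marker Lum (1.93, adjusted p = 0.0276) and the pericyte marker Rgs5 (3.29, adjusted p = 0.0195). Above 0 were 10 of 13 endothelial, 8 of 9 fibroblast and 5 of 6 smooth muscle and pericyte markers, against 49.6% of all genes. Below 0 were 3 endothelial markers (lowest Vwf, -0.62), 1 fibroblast marker (Dpt, -0.54) and 1 pericyte marker (Cspg4, -0.43). The cardiomyocyte marker Tnni3 was called lower (-0.80, adjusted p = 0.0391), as 1 of 9 on its list, whose median was -0.08. Siglech, a marker of the plasmacytoid dendritic cells that make type I interferon, was lower in TAC_BIX than in sham (-1.08, adjusted p = 0.0239). It measured 5.02 and 4.76 in TAC_BIX, 5.03 and 4.96 in TAC_DMSO, and 6.06 and 5.87 in sham. The other measured markers on that list, which other cells express too, had differences above 0 from sham in TAC_BIX, of 0.87 for Tcf4 (adjusted p = 0.0527) and 0.45 for Irf8 (adjusted p = 0.212), and the median of the 3 was 0.45. The part of these cell types in the differences of the interferon-stimulated genes was not tested.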

How the data were processed

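For each probe and array the authors deposited a bead signal intensity and a detection p-value; the intensities were neither normalized nor background subtracted (lowest signal 87.5). The authors' processed log2 values, which share one distribution on all arrays and whose background treatment is not given in the sources used here, served as an alternative. GenomeStudio 2011.1, lumi and limma were used upstream, per the submitters' processing notes, with no roles given.

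The neqc function of limma 3.58.1 (R 4.3.3) estimated background from the detection p-values, corrected for it, added an offset of 16 and brought the arrays to one distribution on a log2 scale. Probes detected at p under 0.05 on at least 2 of 6 arrays were kept, 19273 of 45281, and 16446 of them had a single gene symbol in the platform's table; 18 probes with several genes and 10378 with none were left out. A gene was its kept probe with the highest mean (11 of the 31 members had several). Some listed pathway genes are not reported here.

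All 6 arrays entered one linear model with a mean for each group (lmFit, eBayes without trend, 3 residual and 4.62 prior degrees of freedom), with two-sided tests, Benjamini-Hochberg adjustment over 10538 genes and calls at an adjusted p under 0.05. Differences are first group minus second, and folds are 2 to that power on values that include the offset, which compresses low signals. Where neither array of the lower group detected a gene the fold is a bound, set against the higher of its own level and the lowest detected level (4.80 to 4.99 log2). Replicate numbers did not pair the arrays (correlations of deviations -0.243 to 0.086). Background, offset, scaling, filter, probe choice, prior, replicate block and each array left out were tried as alternatives. The procedure was tested on simulated data. Motifs were searched as letter patterns in RefSeq promoters, and promoters were aligned with Biopython 1.88.

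The members, role groups, pathway and marker lists were chosen with earlier results of these data known. Array values are given for members called anywhere and for the 2 members with the smallest p of each role group in each comparison; pathway genes named are the 4 with the smallest p in each comparison. Siglech and the other cell type markers named were chosen after their values were seen.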

Additional observations from a re-analysis of the deposited data

How the results depend on the processing

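With 2 arrays per group the spread limits every value, and dim genes near the detection limit have compressed differences. The member counts called in TAC_DMSO against sham (1), TAC_BIX against TAC_DMSO (0) and TAC_BIX against sham (3) became 5, 1 and 1 without background correction, 6, 2 and 5 with an offset of 50, 18, 0 and 17 with median scaling, 0, 0 and 0 with the authors' processed values, 6, 2 and 4 over probes detected on all 6 arrays, 0, 0 and 0 with no filter on dim probes, and 8, 2 and 6 with a robust prior that follows intensity. The genes called (43, 0 and 701) became 283 and 710 in the first 2 comparisons without background correction, 275 and 563 with the offset, 956, 9 and 3771 with median scaling, 93 and 642 with the authors' values, 134 and 359 over probes detected on all arrays, 1 in the first and 369 in the third with no filter, and 426, 699 and 1136 with that prior. With the replicate block, which the numbers do not call for, 0 genes and 0 members were called in TAC_DMSO against sham and 253 genes in TAC_BIX against sham. Leaving out 1 array at a time gave 0 to 166, 0 to 6 and 0 to 738 genes and 0 to 3, 0 to 1 and 0 to 3 members; a group left with 1 array was assumed to vary like the others. The median member difference in TAC_DMSO against sham (0.80) was 0.43 without background correction and 0.55 with an offset of 50. It was 1.08 with median scaling, 0.29 with the authors' values and 0.53 to 1.03 with 1 array left out. In TAC_BIX against sham the median (0.35) was 0.14 without background correction and 0.24 with an offset of 50. There it was 0.96 with median scaling, 0.10 with the authors' values and 0.12 to 0.60 with 1 array left out. The median of TAC_BIX against TAC_DMSO (-0.26) ran from -0.44 to -0.09 over these settings, beside medians over all genes of 0.31, 0.23 and 0.53 with median scaling. The causes of these changes were not tested. Of 1374 differences of single members under the alternatives, 65 changed sign, none of them called under either setting. Without Igtp and Irgm2, an alternative added after seeing the data, the medians of the first 2 comparisons were 0.72 and -0.26.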
